A study of Mus musculus with 10 samples.

Results

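The NRF2 pathway genes described here are Nfe2l2, which encodes the transcription factor NRF2, its inhibitor Keap1 and 8 classic target genes outside the transferase families, namely Nqo1, Hmox1, Gclc, Gclm, Txnrd1, Srxn1, Osgin1 and Slc7a11. They were chosen by symbol, with no threshold on their values but with earlier results of these data known, and all 10 members were found once each among the 54446 genes of the table. RNA came from whole esophagus of wild-type C57BL/6 mice. One group of 5 libraries (C1 and D1 to D4) came from mice given the hapten oxazolone (OXA), which serves here to model eosinophilic esophagitis, and the other group of 5 (A1 to A5) came from vehicle controls of the same wild-type genotype. CEL-Seq, which counts the 3′ ends of polyadenylated transcripts, was used. The sources used here do not give dose, schedule, route, age, sex or the meaning of the letters A, C and D. Nor do they state that each library is 1 animal, and the p-values therefore measure library-to-library spread only.

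NRF2 is held in the cytoplasm by KEAP1, which presents it to a CUL3 ubiquitin ligase for breakdown. Oxidants and electrophiles modify cysteines of KEAP1, NRF2 then escapes breakdown, enters the nucleus, pairs with a small Maf protein and binds antioxidant response elements near its target genes. In squamous epithelium such as that of the esophagus the pathway is known for its part in detoxification and in keratinization, and loss of Keap1 in mice is known to cause hyperkeratosis of the esophagus. Because NRF2 is controlled mainly as a protein, transcript levels of Nfe2l2 do not report its activity.

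Stretches of the members' promoters are printed here because they hold the letters of elements through which the pathway, or a second pathway in the case of Slc7a11, is known to act. They are RefSeq sequences on GRCm38.p6, read 5′ to 3′ on the strand of the gene, and capitals mark the motif matches.

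Nfe2l2, chr2:75704870-75704913, minus strand: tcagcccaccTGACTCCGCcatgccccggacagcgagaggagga
Gclm, chr3:122245398-122245456, plus strand: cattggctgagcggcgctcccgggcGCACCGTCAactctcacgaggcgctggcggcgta
Txnrd1, chr10:82859089-82859147, plus strand: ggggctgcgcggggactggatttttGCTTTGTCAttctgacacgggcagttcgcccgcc
Srxn1, chr2:152105397-152105512, plus strand: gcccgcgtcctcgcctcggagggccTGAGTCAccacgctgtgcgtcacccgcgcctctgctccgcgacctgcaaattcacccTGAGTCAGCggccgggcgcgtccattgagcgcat
Osgin1, chr8:119437023-119437081, plus strand: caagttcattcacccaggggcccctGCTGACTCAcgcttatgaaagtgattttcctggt
Slc7a11, chr3:50443628-50443704, minus strand: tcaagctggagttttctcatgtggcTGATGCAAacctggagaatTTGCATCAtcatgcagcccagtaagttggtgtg

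Windows of 300 bases (250 upstream and 50 downstream of a RefSeq start) were searched on both strands for TGACNNNGC (the core of the antioxidant response element), TGANTCAGC (the form bound by NRF2-type factors with small Maf proteins), TGACTCA (the AP-1 element, which overlaps TGANTCAGC) and TTGCATCA (the core of the amino acid response element bound by ATF4). RefSeq windows matched 8 of the 10 members, in 10 windows, Txnrd1 having 3. TGACNNNGC was found in 4 of the 10 windows, those of Nfe2l2, Gclm, Srxn1 and 1 of the Txnrd1 windows, against 12.4% of all 32851 windows. In Gclm it lay 134 to 126 bases upstream of the start, and in Txnrd1 92 to 84 bases upstream, on the reverse strand in both, while in Srxn1 it lay just downstream of the start and is not shown. TGANTCAGC was found in Srxn1 (45 to 37 bases upstream) and Osgin1 (99 to 91 bases upstream), against 1.19% of all windows. TGACTCA was found in these same genes, against 5.20% of all windows, in part as the same letters. Slc7a11 alone held TTGCATCA, with 2 matches in opposite orientation, against 0.895% of all windows. Windows of Keap1 and Nqo1 held none of these letters, and Hmox1 and Gclc had no window. Bases outside the windows were not searched, so elements farther from a start would be missed. A match describes the letters only and shows no binding.

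Depth ranged from 3675479 to 8364227 reads in OXA libraries and from 5094159 to 12108822 in vehicle libraries. Values are normalized counts, each gene's reads scaled by the library's size factor. A count of 0 allows up to 3 reads, which on this scale was 3.50 on average in OXA and 2.82 in vehicle libraries and covers counting error only. All 10 members passed the filter on low values, the lowest mean over the 10 libraries being the 74.2 of Osgin1, whose OXA libraries came closest to the floor (16.3 in D2, against a floor of 5.43 there). OXA was compared with vehicle by limma on log2(value + 1) for 14712 genes with a mean of at least 5, with Benjamini-Hochberg adjusted p-values under 0.05 called. Among the called genes 52.5% were higher on the deposited scale and 65.4% after scaling to library totals, and the median gene had a log2 change of -0.01 in the first case and 0.11 in the other. Markers of the tissue were present in every library. Summed transcript of 12 markers of differentiated epithelium was 219188 to 573288 in OXA and 670483 to 1140498 in vehicle, with 8 of 11 tested lower and 1 higher, and Rhcg at 0 throughout. Summed macrophage markers were 6683 to 12713 in OXA and 3202 to 5585 in vehicle, with 12 of 15 tested higher and none lower, and none of the 16 at 0 in all libraries of a group. Summed cell cycle markers were 3025 to 5814 in OXA and 352 to 620 in vehicle, and all 8 were higher. Basal epithelial markers overlapped between the groups (23176 to 49867 in OXA, 30446 to 41928 in vehicle). In whole tissue, fewer cells of a type and less RNA per cell cannot be told apart, and the part of these shifts in cell markers in the results below was not tested.

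After OXA, 7 of the 10 members were lower, 2 were higher and 1, Nfe2l2 itself, did not pass. Of all genes tested, 14.2% were lower and 15.7% higher, 29.9% together. The lower members were Osgin1, Nqo1, Gclm, Gclc, Txnrd1, Hmox1 and Srxn1, with changes from -2.72 to -0.53 on the log2 scale. Slc7a11 and Keap1 were higher, by 1.6 and 0.71. The median change of the members was -0.73, beside -0.01 for all genes tested. Groups did not overlap for 7 members, 5 of them lower and 2 higher, and among all genes tested 10.4% were lower and 12.0% higher without overlap, 22.4% together.

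**Figure D1:**
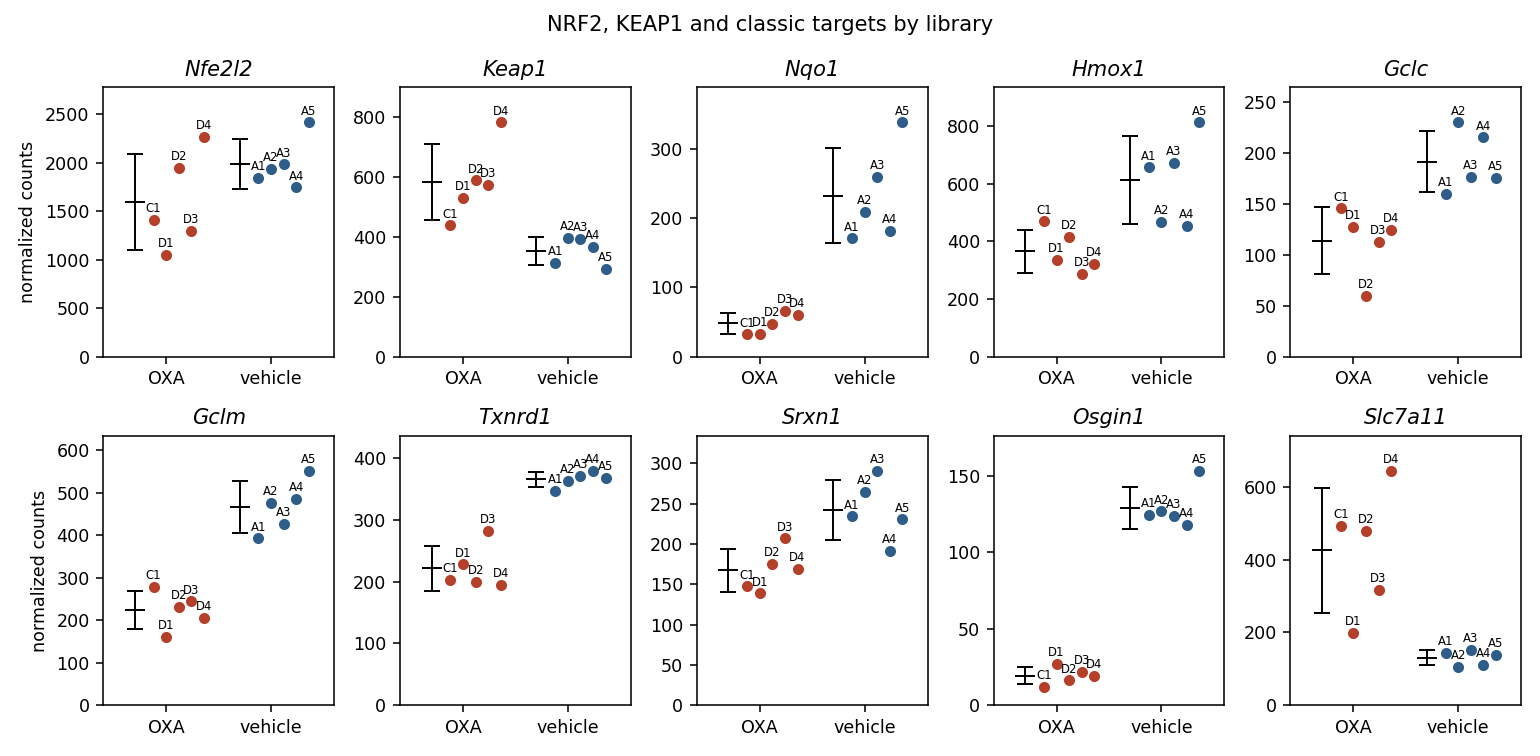
Normalized counts (vertical axes, linear and starting at 0) of the 10 genes in OXA (red) and vehicle (blue) libraries, each point 1 library with its name, and the black bar beside each group its mean ± SD (n = 5). Osgin1 and Nqo1 show the widest gaps between the groups, Slc7a11 and Keap1 lie higher in OXA, and Nfe2l2, Hmox1 and Srxn1 overlap.

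Transcript of the factor itself did not pass. Nfe2l2 (ENSMUSG00000015839.6, GRCm38 chromosome 2, 75675213 to 75704641, minus strand) stood at 1411, 1049, 1946, 1302 and 2265 normalized counts in the OXA libraries C1, D1, D2, D3 and D4, against 1846, 1942, 1985, 1748 and 2418 in the vehicle libraries A1 to A5. D2 and D4 lay within the vehicle range, while C1, D1 and D3 lay under it. Nfe2l2 averaged 1595 ± 497 in OXA and 1988 ± 257 in vehicle, a log2 fold change of -0.36 ± 0.20 (SE) with a 95% interval from -0.78 to 0.06 (limma adjusted p = 0.178, exact permutation p = 0.119). This outcome depended on libraries and settings. Nfe2l2 did not pass in 19 of 22 alternatives. Among these, the change was -0.23 without D1 (limma adjusted p = 0.358) and -0.23 with scaling to library totals (adjusted p = 0.338). It passed in 3 alternatives. These gave -0.50 without D4 (adjusted p = 0.0476) and -0.59 without the 3 shallowest libraries A5, D2 and D4 (adjusted p = 0.00792). The third gave -0.58 with a skeletal muscle marker score as covariate (adjusted p = 0.00366). Summed skeletal muscle markers were 110437 in D2 and 75041 in D4, against 101152 in C1, 202683 in D3 and 268763 in D1, and 155695 to 200241 in vehicle. The part of the muscle content in the Nfe2l2 values was tested only by that covariate.

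Transcript of the inhibitor was higher. Keap1 (ENSMUSG00000003308.15, chromosome 9, 21229430 to 21239361, minus strand), the adaptor that delivers NRF2 to its ubiquitin ligase, had 438, 530.3, 588, 574 and 782 normalized counts in C1, D1, D2, D3 and D4, against 314, 397, 393, 366 and 293 in A1 to A5. Every OXA library lay above every vehicle library, D4 the highest and C1 the closest to vehicle. Keap1 rose by 0.71 ± 0.16 on the log2 scale (583 ± 126 in OXA and 353 ± 46.8 in vehicle, limma adjusted p = 0.00433), with an exact permutation p of 0.00794, the smallest that 5 libraries against 5 allow. It kept the call in all 22 alternatives, with changes from 0.48 to 0.84. An antisense gene, Gm16754, overlaps the 3′ end of Keap1 and had at most 6.75 normalized counts in any library. The strand setting of the counting is not known, so reads of this pair cannot be told apart. Within a library, the log2 ratio of Nfe2l2 over Keap1 was 1.42 ± 0.33 in OXA and 2.49 ± 0.33 in vehicle, a difference of -1.07 with no overlap (exact permutation p = 0.00794, adjusted over 5 ratios p = 0.00992). The ratio of the factor's transcript to that of its inhibitor thus differed between the groups although Nfe2l2 alone did not pass.

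Osgin1 and Nqo1 showed the widest decreases. Osgin1 (ENSMUSG00000074063.10, chromosome 8, 119434124 to 119446556, plus strand) encodes an oxidative stress-induced growth inhibitor and holds TGAGTCAGC on the reverse strand of the promoter stretch above. It had 12.2, 27.0, 16.3, 22 and 19.2 normalized counts in C1, D1, D2, D3 and D4, against 124, 127, 124, 118 and 153 in A1 to A5. Even D1, the highest OXA library, lay far below A4, the lowest vehicle library. These values rest on 9 to 38 reads in OXA and 107 to 227 in vehicle libraries. Osgin1 fell by 2.72 ± 0.22 on the log2 scale, to 19.3 ± 5.62 in OXA, against 129 ± 13.8 in vehicle (6.68-fold, limma adjusted p = 1.65e-06, exact permutation p = 0.00794).

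Nqo1 (ENSMUSG00000003849.8, chromosome 8, 107387925 to 107403206, minus strand), a quinone reductase widely used as a readout of NRF2 activity, had 32.1, 33.4, 47.1, 66.1 and 60.7 normalized counts in C1, D1, D2, D3 and D4, against 171, 209, 259, 182 and 338 in A1 to A5. No OXA library came near the vehicle range. Nqo1 fell by 2.27 ± 0.25 on the log2 scale, to 47.9 ± 15.5 in OXA, against 232 ± 68.4 in vehicle (4.84-fold, limma adjusted p = 2.05e-05, exact permutation p = 0.00794). Of all genes tested, 0.877% had a lower change than Osgin1 and 1.48% a lower one than Nqo1.

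**Figure D2:**
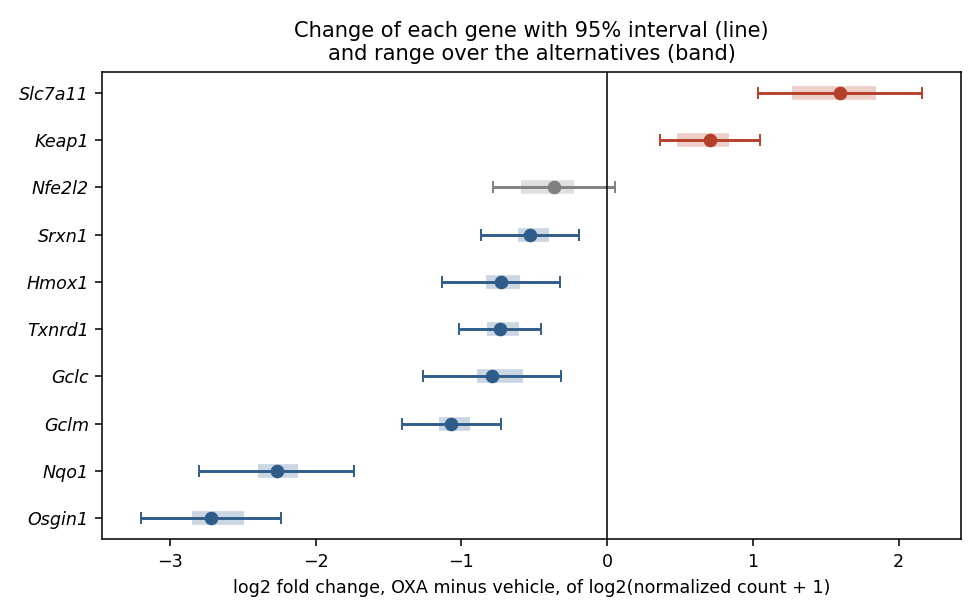
Log2 fold change of each gene (horizontal axis, OXA minus vehicle, of log2(normalized count + 1)), with points for the limma estimate, thin lines for its 95% interval and pale bands for the range over the 22 alternatives. Slc7a11 and Keap1 lie right of 0, the interval of Nfe2l2 spans 0, and the 7 other genes lie left of 0, Osgin1 and Nqo1 the farthest.

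Both subunits of glutamate-cysteine ligase, the rate-limiting enzyme of glutathione synthesis, were lower. The modifier subunit Gclm (ENSMUSG00000028124.15, chromosome 3, 122245557 to 122271032, plus strand) had 278, 161, 232, 244 and 206 normalized counts in C1, D1, D2, D3 and D4, against 392, 476, 427, 485 and 551 in A1 to A5. All OXA libraries lay under all vehicle libraries. Gclm fell by 1.07 ± 0.16 on the log2 scale (224 ± 43.9 in OXA and 466 ± 60.4 in vehicle, limma adjusted p = 2.32e-04, exact permutation p = 0.00794). An antisense gene, Gm17494, overlaps Gclm and had at most 49.7 normalized counts in any library. The sources used here do not say whether counting used the strand, and reads of this pair cannot be told apart.

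The catalytic subunit Gclc (ENSMUSG00000032350.9, chromosome 9, 77754535 to 77794785, plus strand) had 146, 127, 59.7, 113 and 125 normalized counts in C1, D1, D2, D3 and D4, against 160.2, 230.2, 176, 216 and 176 in A1 to A5. D2, where the value rests on 33 reads, was far under the other OXA libraries, and C1 came close to A1, yet the groups did not overlap. Gclc fell by 0.79 ± 0.22 on the log2 scale (114 ± 32.6 in OXA and 192 ± 29.7 in vehicle, limma adjusted p = 0.0153), and by 0.58 without D2 (adjusted p = 0.0136). The call was lost with scaling to library totals (-0.66, adjusted p = 0.0596). The log2 ratio of Gclm over Gclc was 1.0 ± 0.60 in OXA and 1.28 ± 0.22 in vehicle, with overlap, and its difference of -0.28 did not pass (exact permutation p = 0.349). Without D2, whose ratio of 1.94 was the highest of all libraries, the difference was -0.51 (adjusted over 5 ratios, exact permutation p = 0.0317).

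Slc7a11 went the other way. It encodes the light chain of the cystine-glutamate exchanger, which brings in cystine for glutathione synthesis, and it is a known target of both NRF2 and ATF4. Slc7a11 (ENSMUSG00000027737.10, chromosome 3, 49892226 to 50443614, minus strand) had 493, 199, 478, 316 and 643 normalized counts in C1, D1, D2, D3 and D4, against 145, 106, 152, 112 and 139 in A1 to A5. Even D1, the lowest OXA library, exceeded the highest vehicle library, and the OXA libraries spread over a wide range. Slc7a11 rose by 1.6 ± 0.26 on the log2 scale (426 ± 172 in OXA and 131 ± 20.4 in vehicle, 3.26-fold, limma adjusted p = 4.72e-04, exact permutation p = 0.00794). Of all genes tested, 5.50% had a higher change.

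Slc3a2, the heavy chain that carries Slc7a11 to the membrane and also pairs with other light chains, had 1192, 839, 1157, 1199 and 1078 normalized counts in C1, D1, D2, D3 and D4, against 845, 823, 769, 763 and 817 in A1 to A5. It rose by 0.43 (limma adjusted p = 0.0200), with D1 within the vehicle range. The log2 ratio of Slc7a11 over Slc3a2 was -1.46 ± 0.54 in OXA and -2.62 ± 0.23 in vehicle, a difference of 1.17 with no overlap (exact permutation p = 0.00794, adjusted over 5 ratios p = 0.00992). The light chain therefore differed more than the heavy chain.

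The members of the thioredoxin system were moderately lower. Thioredoxin reductase Txnrd1 (ENSMUSG00000020250.10, chromosome 10, 82833951 to 82898012, plus strand), a selenoprotein that uses NADPH to reduce thioredoxin, had 203, 228, 199, 283 and 195 normalized counts in C1, D1, D2, D3 and D4, against 347, 363, 371, 379 and 368 in A1 to A5. The vehicle libraries were tightly grouped, with a coefficient of variation of 3.25%, against 16.5% in OXA, and the groups did not overlap. Txnrd1 fell by 0.73 ± 0.13 on the log2 scale (222 ± 36.5 in OXA and 366 ± 11.9 in vehicle, limma adjusted p = 9.22e-04, exact permutation p = 0.00794).

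Its substrate thioredoxin, Txn1, moved in the opposite direction, with 5984, 3426, 7247, 7179 and 5638 normalized counts in C1, D1, D2, D3 and D4, against 2588, 2571, 3611, 2699.6 and 3566 in A1 to A5. D1 lay within the vehicle range and the other OXA libraries above it. Txn1 rose by 0.94 ± 0.21 (limma adjusted p = 0.00422). The log2 ratio of Txnrd1 over Txn1 was -4.69 ± 0.48 in OXA and -3.02 ± 0.24 in vehicle, a difference of -1.67 with no overlap (exact permutation p = 0.00794, adjusted over 5 ratios p = 0.00992), the widest difference of the 5 ratios examined.

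Srxn1 (ENSMUSG00000032802.8, chromosome 2, 152105516 to 152111676, plus strand), sulfiredoxin, which restores overoxidized peroxiredoxins, had 147, 139, 176, 207 and 169 normalized counts in C1, D1, D2, D3 and D4, against 234, 265, 290.4, 192 and 230.4 in A1 to A5. D3 exceeded A4, so the groups overlapped. Srxn1 fell by 0.53 ± 0.16 on the log2 scale (168 ± 26.7 in OXA and 242 ± 37.4 in vehicle, limma adjusted p = 0.0202, exact permutation p = 0.0159). It was the least firm of the calls, lost without A2 (adjusted p = 0.0521), A3 (adjusted p = 0.0580) or C1 (adjusted p = 0.0533) and with scaling to library totals (-0.40, adjusted p = 0.0548).

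Heme oxygenase 1 was lower while macrophage markers were higher. Hmox1 (ENSMUSG00000005413.8, chromosome 8, 75093621 to 75100889, plus strand), the inducible enzyme that breaks down heme and is known to be abundant in macrophages that clear red cells, had 469, 337, 416, 287 and 321 normalized counts in C1, D1, D2, D3 and D4, against 656, 468, 672, 454 and 813 in A1 to A5. C1 lay just above A2 and A4, and the other OXA libraries under every vehicle library. Hmox1 fell by 0.73 ± 0.19 on the log2 scale (366 ± 74.7 in OXA and 613 ± 151 in vehicle, limma adjusted p = 0.00975, exact permutation p = 0.0238), and kept its call in all 22 alternatives (adjusted p = 0.00211 to 0.0357). Hmox2, the constitutive form, averaged 274 ± 29.3 in OXA and 281 ± 30.6 in vehicle and did not pass (change -0.03, adjusted p = 0.876).

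Hmox1 fell less than Nqo1. The log2 ratio of Hmox1 over Nqo1 was 2.95 ± 0.70 in OXA and 1.41 ± 0.31 in vehicle, a difference of 1.54 with no overlap (exact permutation p = 0.00794, adjusted over 5 ratios p = 0.00992). Among OXA libraries, C1 had the highest Hmox1 and the lowest Nqo1 and D3 the reverse, so that the ratio was 3.83 in C1 and 2.1 in D3.

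**Figure D3:**
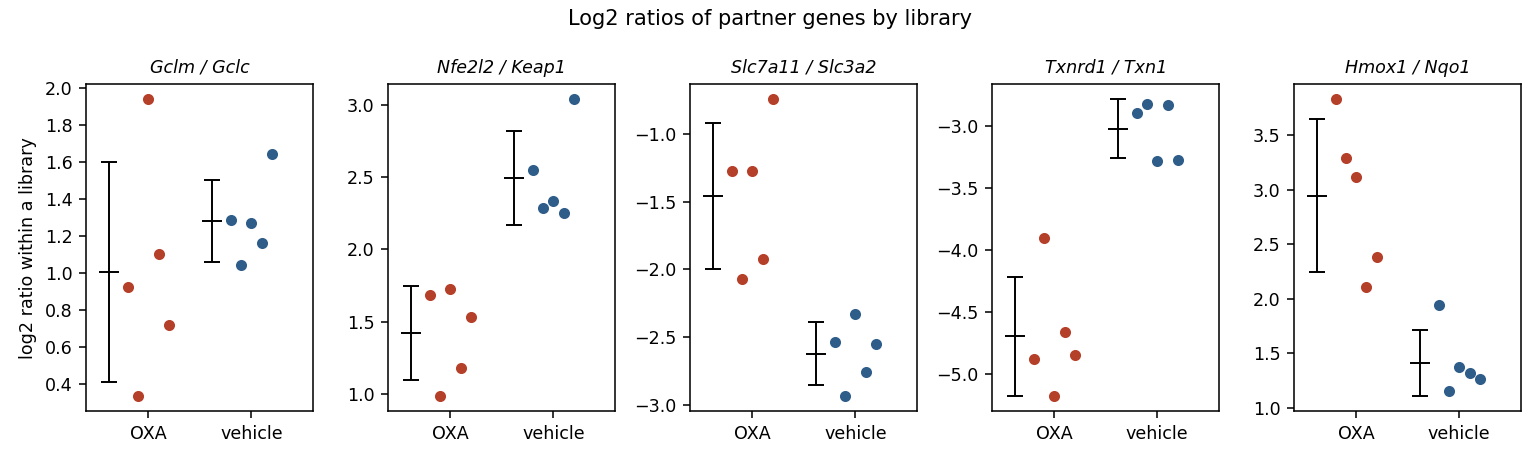
Within-library log2 ratios (vertical axes, difference of log2(normalized count + 1)) of 5 pairs of partner genes in OXA (red) and vehicle (blue) libraries, points for libraries and black bars for mean ± SD (n = 5). Groups are apart for Nfe2l2 over Keap1, Slc7a11 over Slc3a2, Txnrd1 over Txn1 and Hmox1 over Nqo1, and overlap for Gclm over Gclc.

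Genes whose profile over the 10 libraries was closest to that of a member were found by the mean absolute difference of centred log2(value + 1). For Nfe2l2 these were the mitochondrial ribosomal genes Mrps14 (0.0702) and Mrps16 (0.0966) and the potassium channel gene Kcnj15 (0.0846), which like Nfe2l2 did not pass. For Slc7a11 they were the Sprr2 family pseudogene Sprr2j-ps (0.150), the cytokinesis gene Anln (0.202) and Endou (0.214), all 3 higher in OXA. For Osgin1 they were Rgcc (0.258), Megf6 (0.260) and the glutathione transferase Gstm2 (0.268), all 3 lower in OXA. The distance describes these libraries, and for Slc7a11 and Osgin1 much of each likeness is the shared difference between the groups. Nfe2l2 and its 3 nearest genes, with no called difference, shared D1 as the lowest library and A5 as the highest.

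The pathway around the members was described with 9 lists, of which 131 genes that are not members were tested, with 23 higher and 43 lower. Of all genes tested, 15.7% were higher and 14.2% lower. The 43 include the 18 lower genes of the list of other NRF2 targets, which was not drawn blind to these data. They also include Ggt1 and Cbs, described below, which passed the filter on low values through vehicle alone. The pooled counts are therefore no free comparison with those shares. In the list of other NRF2 targets, 18 of 25 tested were lower and 1 higher, with a median change of -1.24. This list was drawn from drug metabolism, efflux and signalling, and was made with decreases of such genes in these data already known. Known NRF2 targets that stand in the other lists are not counted in it, and these went both ways. Among them, Gsr (0.98) and Txn1 (0.94) were higher, while G6pdx (-0.80) and Fth1 (-0.84) were lower. Cyp2a5 and Gstm3, among the 18, passed the filter on low values through vehicle alone and so had to be lower. Aldh3a1, an aldehyde dehydrogenase of squamous and corneal epithelium, stood at 126 ± 75.7 in OXA and 21622 ± 6393 in vehicle, a log2 change of -7.60 ± 0.36 (limma adjusted p = 2.06e-08). The xenobiotic-metabolizing Cyp2a5 had 1.28 ± 1.61 and Gstm3 1.03 ± 0.720 in OXA, means under the average floor of 3.50, against 324 ± 88.8 and 91.9 ± 25.4 in vehicle. Gstm2 was at 724 ± 130.0 in OXA and 4153 ± 766 in vehicle (-2.52 ± 0.16). Cyp2a5, Gstm2 and Gstm3 have close relatives, and the sources used here do not say how reads shared with these were counted, so their values are uncertain.

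**Figure D4:**
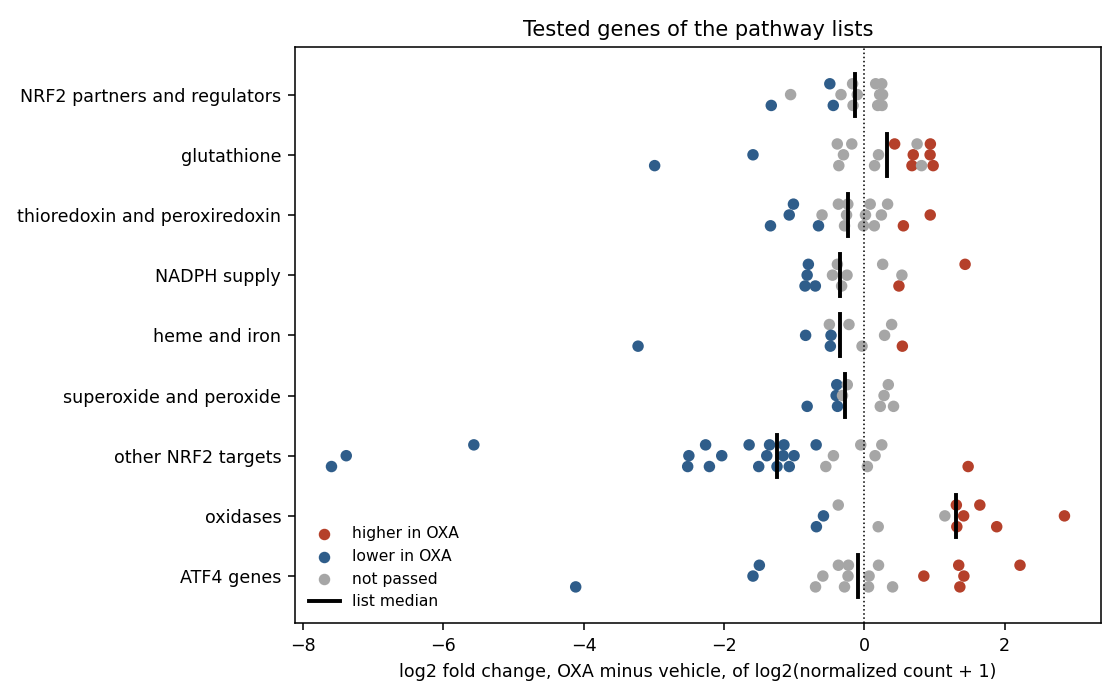
Log2 fold change (horizontal axis, OXA minus vehicle, of log2(normalized count + 1)) of every tested gene of the 9 pathway lists, 1 point a gene, red where called higher, blue where called lower and grey where not passed, with a black bar at each list's median. The list of other NRF2 targets lies mostly left of 0, with a median of -1.24, and the oxidases mostly right of it, with a median of 1.31.

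Among partners and regulators of NRF2, of 14 tested, 3 were lower and none higher, with a median of -0.13. Bach2, a repressor that competes at such elements in lymphocytes, was at 31.1 ± 7.80 in OXA and 78.5 ± 12.4 in vehicle (-1.33 ± 0.22, limma adjusted p = 5.08e-04). Summed lymphocyte markers were 343 to 510 in OXA and 45.8 to 110 in vehicle, with 5 of 7 tested higher and none lower. Which cells the Bach2 values come from was not tested. Sqstm1, which encodes the KEAP1-binding autophagy receptor p62, was at 1930.4 ± 258 in OXA and 2700.4 ± 192 in vehicle (-0.49 ± 0.13, adjusted p = 0.0132). Cul3, the ligase scaffold that KEAP1 binds, was at 383 ± 54.4 in OXA and 523 ± 82.1 in vehicle (-0.44 ± 0.15, adjusted p = 0.0368), but 11 of 22 alternatives ended this call, 8 of them by omitting A1, A2, A3, A4, C1, D2, D3 or D4 (adjusted p up to 0.0892).

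In the list of other glutathione genes 6 of 16 tested were higher and 2 lower, with a median of 0.32. Ggt1, which breaks down extracellular glutathione, was 1 of the 2 lower genes, but it had no read in any OXA library, averaged 10.3 in vehicle and passed the filter through vehicle alone. Glutathione reductase Gsr, which regenerates glutathione with NADPH, had 144 ± 16.7 normalized counts in OXA and 72.0 ± 5.62 in vehicle (0.98 ± 0.15, limma adjusted p = 2.64e-04). The secreted peroxidase Gpx3 (0.94 ± 0.16) and the mitochondrial glutaredoxin Glrx5 (0.94 ± 0.16) also rose. Chac1, which degrades glutathione and is an ATF4 target, was lower at 44.9 ± 18.4 in OXA and 128 ± 31.4 in vehicle (-1.59 ± 0.31, adjusted p = 0.00177).

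Of 17 thioredoxin and peroxiredoxin genes tested, 2 were higher and 4 lower, with a median of -0.24. Peroxiredoxin Prdx6 was at 979 ± 224 in OXA and 2469.7 ± 532 in vehicle (-1.34 ± 0.18, limma adjusted p = 1.20e-04). The thioredoxin-binding Txnip (-1.01 ± 0.16) and the sestrin Sesn1 (-1.07 ± 0.14) fell too. Txn1, described above, was 1 of the 2 that rose.

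Among 12 genes of NADPH supply, 2 were higher and 4 lower, with a median of -0.35. The pentose phosphate enzymes G6pdx (-0.80 ± 0.21), Pgls (-0.81 ± 0.19) and Taldo1 (-0.85 ± 0.15) fell. The mitochondrial malic enzyme Me2 rose, with 71.6 ± 10.6 in OXA and 26.2 ± 7.22 in vehicle (1.44 ± 0.22, limma adjusted p = 3.04e-04).

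Heme and iron genes were 4 lower and 1 higher of 10 tested, with a median of -0.35. Ferritin heavy chain Fth1, which stores iron, was at 6154 ± 1510 in OXA and 10763 ± 1059 in vehicle (-0.84 ± 0.20, limma adjusted p = 0.00534). The iron exporter Slc40a1 had 7.37 ± 7.04 in OXA and 45.9 ± 19.0 in vehicle (adjusted p = 0.00632), with no read in D2 and D3. The heme transporter Slc48a1 fell by 0.48 ± 0.13 on the log2 scale, and the transferrin receptor Tfrc rose by 0.54 ± 0.17, but 3 of 22 alternatives ended this call, by omitting A2, A4 or D1 (adjusted p up to 0.0676). Summed erythroid markers were 11551 to 39615 in OXA and 4629 to 6845 in vehicle, and their part in these values was not tested.

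Of 10 superoxide and peroxide detoxifiers 4 were lower and none higher, with a median of -0.28. Catalase (Cat) was at 386 ± 41.2 in OXA and 677 ± 22 in vehicle (-0.81 ± 0.12, limma adjusted p = 1.53e-04). The other 3 calls, Sod2 (-0.39 ± 0.13), Park7 (-0.40 ± 0.14) and Pon2 (-0.38 ± 0.13), did not hold in 10 alternatives of 22 for Sod2, 14 for Park7 and 14 for Pon2. Omitting A3, A4, A5, C1, D2 or D4 ended all 3 of these calls, with adjusted p up to 0.104. Omitting D3 also ended that of Sod2, A1 those of Park7 and Pon2, A2 that of Park7, and D1 that of Pon2.

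Subunits of the phagocyte oxidase, which makes superoxide, were higher. Of 18 listed oxidase genes 11 were tested, with 6 higher and 2 lower and a median of 1.31. The 2 lower ones were genes of the dual oxidases, and the 6 higher were not all phagocyte subunits. Cybb, the catalytic subunit of the phagocyte NADPH oxidase, was at 889 ± 414 in OXA and 116 ± 28.9 in vehicle (2.85 ± 0.25, limma adjusted p = 3.51e-06). Cyba (1.32 ± 0.19) and Ncf1 (1.31 ± 0.20), which encode further subunits, rose with it, beside the macrophage markers given above. Summed neutrophil markers were 1200.0 to 4999.8 in OXA and 353 to 465 in vehicle, most of it S100a9 (mean 2506 in OXA and 317 in vehicle) and S100a8 (mean 607 in OXA and 14.2 in vehicle). Of 10 such markers 6 were tested, with 4 higher, Camp lower and Cxcr2 not passed, and Ly6g, Elane and Ngp averaged under the mean floor of 3 reads in both groups. How far these markers stand for neutrophils was not tested, nor was the part of neutrophils or macrophages in the oxidase values.

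ATF4 genes were listed because ATF4 also acts on Slc7a11. Of 18 tested, 5 were higher (27.8%, against 15.7% of all genes tested), 3 were lower (16.7%, against 14.2%) and 10 did not pass, with a median of -0.08, and the lower Cbs passed the filter through vehicle alone. The folate enzymes Mthfd2 (2.22 ± 0.23, limma adjusted p = 1.63e-05) and Shmt2 (1.35 ± 0.13, adjusted p = 7.90e-06) rose. Cystathionine beta-synthase Cbs, which makes a precursor of cysteine, was at 3.17 ± 3.17 in OXA and 60.2 ± 13.8 in vehicle (adjusted p = 1.71e-05), and the stress gene Ddit4 fell by 1.5 ± 0.22 on the log2 scale. Atf4 itself averaged 1747 ± 302 in OXA and 1502 ± 143 in vehicle and did not pass (adjusted p = 0.335). Hmox2, Atf4 and Slc3a2 were chosen for their relation to members, outside the rule for naming genes. Ggt1, for its lack of reads in OXA, single markers and the antisense Gm17494 and Gm16754 were also named outside it.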

How the data were processed

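CEL-Seq libraries from whole esophagus, RNA extracted with TRIZOL, were read on an Illumina HiSeq instrument, per the labels' protocols. The deposited table holds a normalized signal, reads of a gene scaled by the size factor of its library. Its values showed this, since dividing each by a step particular to its library gave whole reads for 100% of values within 0.006. Among other tools, HTSeq 0.11.2, DESeq2 1.18.1 and TopHat2 2.1.0 appear without stated settings, with GRCm38 as the build, per the submitters' processing notes. The sources used here do not give strand setting, multi-mapping, filters or use of molecular identifiers. Gene spans in the table ended 300 bases past GENCODE M21 at the 3′ end for 19653 of 54409 matched genes, the 10 members included, so 3′ tags beyond annotated ends can be counted.

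The test was limma 3.58.1 with a mean-variance trend on log2(value + 1), two-sided, for genes with a mean of at least 5, in R 4.3.3, tested on simulated data first. Fold changes on that scale understate the change of low genes. Errors are SE for fold changes and SD (n = 5) for levels. Exact two-sided permutation tests used all 252 assignments of libraries, with Benjamini-Hochberg adjustment over the 5 ratios. Members, lists, ratios and motifs were chosen with earlier results of these data known, so no p is adjusted over the members alone. Named genes are the members, up to 4 called genes of each pathway list with the smallest p, and the 3 nearest profiles of Nfe2l2 and of the members with the highest and lowest change. A gene that this rule names is not reported here. Alternatives were other pseudocounts, filters and scalings, edgeR 4.0.16 and DESeq2 1.42.0 on recovered reads, a muscle covariate, and leaving out libraries. No batch term could be fitted, since the letters are nested within treatment, and numbers after different letters were not read as pairs.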

Additional observations from a re-analysis of the deposited data

Results flagged for a closer look

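Groups of 5 libraries were examined for 1 library far from the others, 100 groups in all, of which 7 stood out (chance flags about 1 in 20). Among the members, A5 was the highest vehicle library for Osgin1, at 153 against 118 to 127 in the other vehicle libraries. For the log2 ratio of Hmox1 over Nqo1, A1 was the highest vehicle library, at 1.94 against 1.16 to 1.37. A5 was also the highest vehicle library for Me2 (38.6 against 20.5 to 25.3) and Slc48a1 (515 against 419 to 445). A2 was the lowest vehicle library for Cat (640 against 681 to 698). In OXA, D1 was the highest library for Cul3 (476 against 335 to 375) and D2 the lowest for Glrx5 (659 against 1082 to 1144). Each of these is given as a value only.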

How the results depend on the processing

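Of 220 member values under the 22 alternatives, 212 kept their direction and their side of the threshold, none changed sign, and the other 8 are the Nfe2l2, Gclc and Srxn1 values given with those genes. Lower members numbered 5 to 8 over the alternatives and higher ones 2 throughout. Over the whole table, higher genes numbered 1896 to 2915 and lower genes 1545 to 2280. The ratios were examined only under other pseudocounts, quantile normalization and leaving out libraries. The 4 ratios that passed did so under each of these that could reach the threshold. Leaving out A5, D2 and D4 together leaves too few libraries for that. Leaving out single libraries moved the Gclm over Gclc difference between -0.51 and -0.11, and it passed without D2. No paired analysis was possible because the labels give the groups different letters and no shared replicate names. With edgeR, 7 members were lower and 2 higher. Depth limits Osgin1 and Nqo1 most, with as few as 9 and 26 reads in a library, and Gclc in D2 with 33.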
